A study of Mus musculus with 4 samples.

Results

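The mRNAs of the opioid system were examined in the medial prefrontal cortex (mPFC) of mice with and without depression-like behavior. The genes are the 3 precursors of opioid peptides (Penk, Pdyn and Pnoc) and the 4 receptors (Oprm1, Oprd1, Oprk1 and Oprl1). They were chosen by name, and all 7 had a row among the 17778 genes of the expression table. The control group (2 libraries) came from C57BL/6 male mice (C57BL/6J in the methods of the study) that lived without stress. The CUMS group (2 libraries) came from male mice of the same strain under chronic unpredictable mild stress, a schedule of social isolation, tilted or damp cages, restraint, noise, strobe light and disturbed light cycles that began in juvenile mice. Sequenced CUMS mice had all met the criteria of the study in the sucrose preference, Y-maze and forced swimming tests, a minority of the stressed mice, so that resilient mice are not represented. RNA was taken 24 hours after the tests and was isolated mouse by mouse. The sources used here do not state whether RNA of several mice was pooled into a library.

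Opioid peptides are cut out of larger precursor proteins in secretory granules and are released together with other transmitters. Enkephalins, from Penk, act mainly on the delta and mu receptors (Oprd1 and Oprm1), dynorphins, from Pdyn, on the kappa receptor (Oprk1), and nociceptin, from Pnoc, on its own receptor (Oprl1). All of these receptors couple to inhibitory G proteins, which open potassium channels, close calcium channels and lower cyclic AMP. In the forebrain, Penk and Pdyn are known from projection neurons of the striatum and from cortical interneurons, and Pnoc from GABAergic neurons. Dynorphin and its kappa receptor are known for their part in the aversive effects of stress.

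The unit that each precursor carries is shown here. It begins with Tyr in Penk and Pdyn and with Phe in Pnoc. The unit with Leu encodes the same residues in Penk and Pdyn, so it does not set these 2 precursors apart. In the reference transcripts (GENCODE M21, build GRCm38), the Penk coding sequence of 268 codons held 7 units that encode Tyr-Gly-Gly-Phe, followed by Met in 6 and by Leu in 1. The Pdyn coding sequence of 248 codons held 3 units, each with Leu. The Pnoc coding sequence of 187 codons held 1 unit that encodes Phe, Gly, Gly, Phe and Thr, the start of nociceptin, and so begins with Phe. Each of the 11 units follows codons for a pair of basic residues, where the precursor is cut. All genes of the precursors lie on the minus strand, and the sequences are given from 5′ to 3′ with the 5 codons of the unit in capitals and 2 codons on either side. The first Penk unit lies in exon 2 at chr4:4134328-4134354 and the only Penk unit with Leu at chr4:4133935-4133961. The second Pdyn unit, which starts dynorphin A, lies in exon 4 at chr2:129688124-129688150, and the Pnoc unit in exon 3 at chr14:65404872-65404898.
Penk, first unit with Met: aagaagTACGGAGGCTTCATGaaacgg
Penk, unit with Leu: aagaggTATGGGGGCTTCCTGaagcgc
Pdyn, second unit: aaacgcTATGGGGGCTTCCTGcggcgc
Pnoc, nociceptin start: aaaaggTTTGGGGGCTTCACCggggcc

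The values were mean RPKM (reads per kilobase of gene model, scaled to the reads of the library) of each group, so that levels of different genes can be compared. The deposited table gives no value for a single library. No difference between the groups could therefore be set against the spread between mice, no replicate check or test was possible, and the intervals below cover counting error alone. They rest on an estimated depth of 7347539 fragments for each control library and 7401925 for each CUMS library, read from the steps between low values. The read totals that the study lists are larger, and the intervals would be narrower at a greater depth. In bulk tissue, fewer cells of a type and less RNA per cell cannot be told apart.

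Penk was by far the highest of the genes in both groups, and Oprm1 was close to absent. The levels covered more than 3 orders of magnitude on the RPKM scale. In control, Penk lay above 97.8% of all genes in the table, Pdyn and Oprl1 above 81.4% and 81.3%, Oprd1 and Pnoc above 53.6% and 53.5%, Oprk1 above 34.5% and Oprm1 above 9.82%. The level of Penk was 6.56 times that of Pdyn in control (95% counting interval of the ratio 5.80 to 7.43) and 4.75 times in CUMS (4.20 to 5.39). Pdyn and Oprl1 did not differ beyond counting error in control (ratio of levels 1.00, interval 0.875 to 1.14). Neither did Oprd1 and Pnoc (ratio 1.01, interval 0.848 to 1.2). In CUMS both of these pairs stood apart, with a ratio of 1.18 for Pdyn over Oprl1 (1.03 to 1.35) and of 1.86 for Oprd1 over Pnoc (1.5 to 2.31). The order of the 7 genes was the same in the groups. Each comparison here that involves Pdyn depends on the length of its gene model, as set out below.

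**Figure D1:**
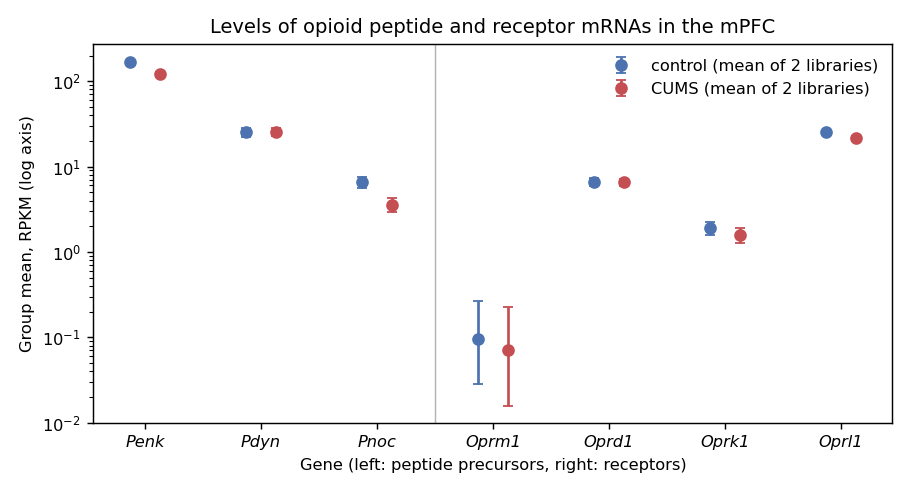
Group means in RPKM (log axis) of the 3 precursors (left of the line) and the 4 receptors (right), in control (blue) and CUMS (red), each point being the mean of 2 libraries, with exact 95% counting intervals that do not cover differences between mice. Penk is highest at 166 and 121 RPKM, Pnoc shows the widest separation of the groups, and the Oprm1 intervals overlap near the bottom.

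Among the precursors, Penk and Pnoc had lower means in CUMS and Pdyn was level. Penk (proenkephalin, gene 18619, chromosome 4, 4133531 to 4138819, 2 exons) had a mean of 165.975 RPKM in control and 120.775 RPKM in CUMS, which correspond to about 3517 and 2578 fragments over both libraries of a group. The control mean was 1.37 times the CUMS mean. The log2 ratio of CUMS over control was -0.46 (counting interval -0.53 to -0.39), which is far outside counting error but inside the fold of 1.5 that was used to call a gene. Exons of Penk overlap exons of A830012C17Rik on the other strand in GENCODE M21, and the use of strand in counting was not stated.

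Pnoc (prepronociceptin, gene 18155, chromosome 14, 65400673 to 65425472, 4 exons) had a mean of 6.525 RPKM in control and 3.505 RPKM in CUMS, about 206 and 112 fragments. The control mean was 1.86 times the CUMS mean, with a log2 ratio of -0.90 (-1.23 to -0.55). This was the only one of the 7 genes past the 1.5-fold limit.

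Pdyn (prodynorphin, gene 18610, chromosome 2, 129686565 to 129699844) had a mean of 25.32 RPKM in control and 25.4 RPKM in CUMS, about 278 and 281 fragments, and a log2 ratio of 0.00 (-0.24 to 0.25). A difference within this interval was not detectable at this depth. The gene model behind the deposited Pdyn value was 747 bases long, exactly the coding length of its reference transcript of 2386 bases. Whether reads from the ends outside the coding sequence were counted is not stated. If they were, the level over the whole transcript would be 7.93 RPKM in control and 7.95 RPKM in CUMS, which would place Pdyn below Oprl1, while the ratio between the groups would stay as it is. The models of the other genes lay within 35 bases of an annotated transcript length, except that of Oprm1.

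The summed level of the precursors came to 197.82 RPKM in control and 149.68 RPKM in CUMS, a log2 ratio of -0.40 (counting interval -0.47 to -0.33). Penk made up 83.9% of this sum in control and 80.7% in CUMS, Pdyn 12.8% and 17.0%, and Pnoc 3.30% and 2.34%. The sum thus mostly repeats Penk. Without Penk its log2 ratio was -0.14 (-0.35 to 0.07). That value and the shares depend on the length of the Pdyn model. With Pdyn over its whole transcript, Pdyn and Pnoc would sum to 14.5 RPKM in control and 11.5 RPKM in CUMS, a log2 ratio of -0.34 (-0.53 to -0.14), while the sum of all 3 would have a log2 ratio of -0.45.

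Among the receptors, the nociceptin receptor Oprl1 was the most abundant and had a lower mean in CUMS, and the delta receptor was level. Oprl1 (gene 18389, chromosome 2, 181715016 to 181720985) had a mean of 25.28 RPKM in control and 21.475 RPKM in CUMS, about 1127 and 965 fragments. Its log2 ratio was -0.24 (-0.36 to -0.11), outside counting error, and the control mean was 1.18 times the CUMS mean. Both the ligand precursor and the receptor of the nociceptin system were therefore lower in CUMS, Pnoc by a larger ratio. The level of Pnoc was 0.258 times that of Oprl1 in control and 0.163 times in CUMS.

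Oprd1 (delta receptor, gene 18386, chromosome 4, 132110726 to 132144486) had a mean of 6.57 RPKM in control and 6.51 RPKM in CUMS, with about 388 fragments in each group. Its log2 ratio was -0.01 (-0.22 to 0.20), and the sign turned with scaling. Oprk1 (kappa receptor, gene 18387, chromosome 1, 5588466 to 5606131) had a mean of 1.885 RPKM in control and 1.565 RPKM in CUMS, about 130 and 108 fragments. The log2 ratio of Oprk1 was -0.27 (-0.66 to 0.10), a difference within counting error at the estimated depth. At 2 times the estimated depth its interval would be -0.55 to -0.01 and exclude 0, so that this call rests on the depth estimate.

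Oprm1 (mu receptor, gene 18390, chromosome 10, 6758506 to 7038198) had a mean of 0.095 RPKM in control and 0.07 RPKM in CUMS, about 4 and 3 fragments. It was below the 0.5 RPKM minimum in both groups. With so few fragments the log2 ratio of -0.44 has a counting interval of -3.2 to 2.14 and carries no direction. This gene has 31 annotated transcripts, of which 17 are coding, and the table used 1 model of 2641 bases that lay 221 bases from the nearest annotated transcript length. Oprm1 exons overlap those of Ipcef1 on the other strand. The low value is that of this model, and reads on exons outside it, if any, are not part of it.

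The receptors summed to 33.83 RPKM in control and 29.62 RPKM in CUMS, a log2 ratio of -0.19 (-0.29 to -0.09). Oprl1 was 74.7% of the sum in control and 72.5% in CUMS, Oprd1 19.4% and 22.0%, Oprk1 5.57% and 5.28%, and Oprm1 0.281% and 0.236%. Without Oprl1 the log2 ratio of the sum was -0.07 (-0.25 to 0.11).

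**Figure D2:**
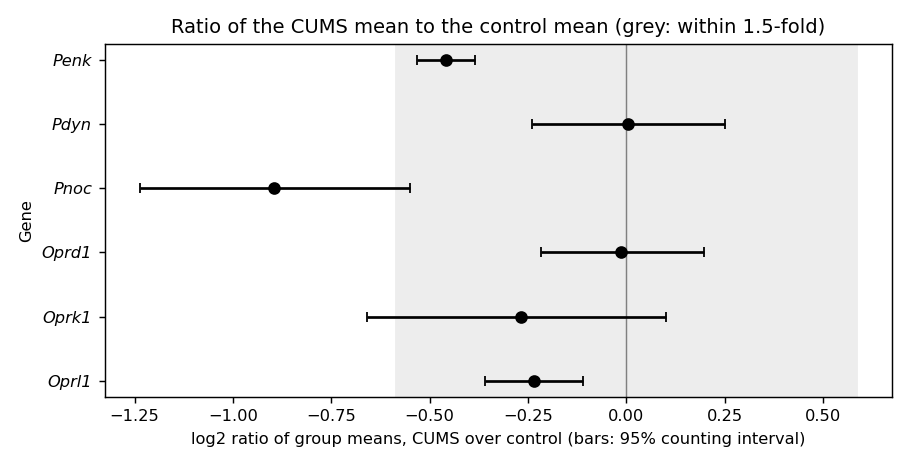
Log2 of CUMS over control group means for the 6 genes of at least 0.5 RPKM, with exact 95% counting intervals as bars and the range within 1.5-fold in grey. Pnoc at -0.90 lies outside the grey range, Penk at -0.46 and Oprl1 at -0.24 lie inside it with intervals under 0, and the intervals of Pdyn, Oprd1 and Oprk1 hold 0.

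Against all genes, Pnoc and Penk lay toward the lower end, and more so within the broad range of expression that holds each. Of the 14257 genes of at least 0.5 RPKM, 1.95% had a lower ratio than Pnoc, 6.38% than Penk, 14.1% than Oprk1, 16.6% than Oprl1, 50.4% than Oprd1 and 54.3% than Pdyn. Of the 7 genes, 6 reached 0.5 RPKM, all of them in both groups. One of them (1 of 6, Pnoc) was past 1.5-fold and lower in CUMS, and 0 of 6 were past it and higher. The same rule held for 4.42% (lower) and 2.78% (higher) of all genes tested. The share depends on the level, because low values vary more. Past 1.5-fold and lower were 10.5% of genes with a larger mean of 0.5 to 5 RPKM, 1.39% of genes from 5 to 50 RPKM, where Pnoc lies, and 0.772% of genes of 50 RPKM or more, where Penk lies. Among the 7712 genes of 5 to 50 RPKM, 0.467% had a lower ratio than Pnoc. Pnoc, with a larger mean of 6.525 RPKM, lies near the lower end of this range, so most of these genes have a higher level. Among the 1685 genes of 50 RPKM or more, 1.2% had a lower ratio than Penk. For Oprl1 the share was 11.3% of the genes of its range, for Oprk1 26.5%, and for Oprd1 and Pdyn 50.4% and 55.0%. The counting interval was under 0 for 3 of 6 members (Penk, Pnoc and Oprl1) against 16.7% of all genes tested, and over 0 for 0 of 6 against 12.5%. The median log2 ratio was -0.25 over the 6 members and -0.015 over all genes tested. With 6 genes, these counts describe the members and are no test of them as a group.

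**Figure D3:**
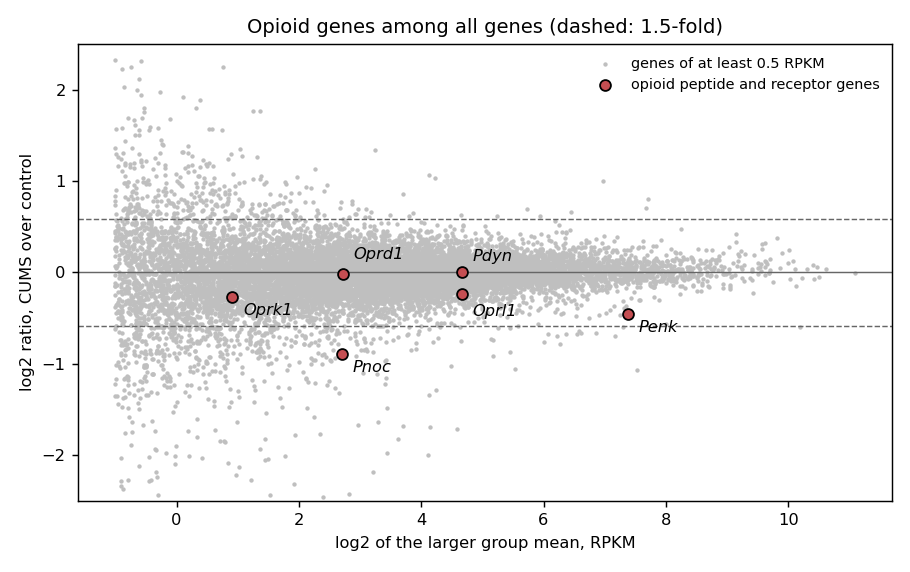
Log2 ratio of CUMS over control against the log2 of the larger group mean in RPKM, for genes of at least 0.5 RPKM (grey) and the 6 opioid genes above that minimum (red), with dashed lines at 1.5-fold. The 51 genes with a log2 ratio beyond 2.5 in size are outside the plot. The grey cloud narrows to the right, Penk sits at its lower edge and Pnoc below the lower dashed line.

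Genes that make, break down or act for opioid peptides were counted together with related peptide genes, without matching for level. Over 6 lists with 72 genes, 70 genes reached 0.5 RPKM. Of these 1 was past 1.5-fold and higher (1.43%, against 2.78% of all genes tested) and 4 were past it and lower in CUMS (5.71%, against 4.42%). Of the 4 that were lower, 2 (Nts and Cort) belong to the list of related peptide genes. All 4 (Ece2, Gng4, Nts and Cort) have a larger mean of 5 to 50 RPKM, where 1.39% of genes were past it and lower. The shares over all genes tested include many genes of low level. They therefore do not show whether the listed genes passed the limit as often as genes of like level. The median log2 ratio was 0.00, but it spans genes on either side. The counting interval was over 0 for 20 of the 70 genes (28.6%, against 12.5% of all genes) and under 0 for 19 (27.1%, against 16.7%), without matching for level, on which the width of the interval depends.

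Of the 10 genes that cut, amidate or pack peptide precursors, 0 were past 1.5-fold, with a median log2 ratio of 0.05. Cpe, the carboxypeptidase that trims peptides after cutting, had 1079.64 RPKM in control and 1109.74 RPKM in CUMS. Pcsk1n, an inhibitor of the prohormone convertases, had 277.135 and 279.945 RPKM. The counting interval was over 0 for 4 of the 10 genes and under 0 for 2, and the genes named next were chosen after their values were seen. The prohormone convertase Pcsk2 had the highest ratio of the list (99.58 and 124.41 RPKM, log2 ratio 0.32, interval 0.28 to 0.37), opposite in sign to Penk and Pnoc. Scg2 had the lowest (92.51 and 72.805 RPKM, log2 ratio -0.35, interval -0.42 to -0.27), with the same sign as Penk and Pnoc. Chga was also lower (log2 ratio -0.18, interval -0.26 to -0.11). Of 8 tested peptidases, 1 was past the limit and lower. This was Ece2, an endothelin-converting enzyme that can also cut other neuropeptides, with 13.755 RPKM in control and 8.65 RPKM in CUMS (log2 ratio -0.67, interval -0.86 to -0.48). The highest in level, the aminopeptidase Npepps, had 38.185 and 36.34 RPKM, and the endopeptidase Thop1 had 23.89 and 25.13 RPKM.

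Of 13 G protein subunits, 1 was past the limit and lower. Gng4, a gamma subunit, had 36.195 RPKM in control and 21.61 RPKM in CUMS (log2 ratio -0.74, interval -0.86 to -0.63). Gnb1, a beta subunit and the highest of the list, had 237.265 and 257.975 RPKM. Gnb2, also a beta subunit, had 221.01 and 220.41 RPKM. The list had a median of 0.05.

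Of 12 tested channels and cyclases, 0 were past the limit, and the median log2 ratio was 0.04. Adcy5, the main adenylyl cyclase of the striatum, had 84.735 RPKM in control and 69.98 RPKM in CUMS, and Adcy1 had 58.91 and 64.235 RPKM. Kcnj5, a subunit of the potassium channels that these G proteins open, was the gene of the list below the minimum (0.465 and 0.135 RPKM, about 31 and 9 fragments). Of 16 genes for receptor desensitization and trafficking, 1 was past the limit and higher. Rtp4, a chaperone that helps opioid receptors to the cell surface, had 1.045 RPKM in control and 1.795 RPKM in CUMS, about 24 and 42 fragments (log2 ratio 0.78, interval 0.04 to 1.58). Rgs4, which shortens G protein signals, was the highest of the list with 112.36 and 146.41 RPKM. Grk2, the receptor kinase listed in the table as Adrbk1, had 108.085 and 101.48 RPKM. The list had a median of -0.05.

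The other peptide precursors did not share 1 direction. Of 11, 2 were past the limit and lower and 0 were past it and higher, with a median log2 ratio of -0.10. Nts, the neurotensin precursor, had 9.83 RPKM in control and 3.155 RPKM in CUMS (log2 ratio -1.64, interval -2.09 to -1.20). Cort, the cortistatin precursor, had 8.44 and 4.995 RPKM (log2 ratio -0.76, interval -1.38 to -0.15). Cck and Sst, the most abundant, had 421.315 and 565.445 RPKM and 314.325 and 326.37 RPKM. Pomc, the precursor of beta-endorphin, had 1.995 RPKM in control and 1.4 RPKM in CUMS, about 30 and 21 fragments, and its interval of the log2 ratio (-1.40 to 0.33) holds 0. Pomc was named because it completes the opioid precursors.

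**Figure D4:**
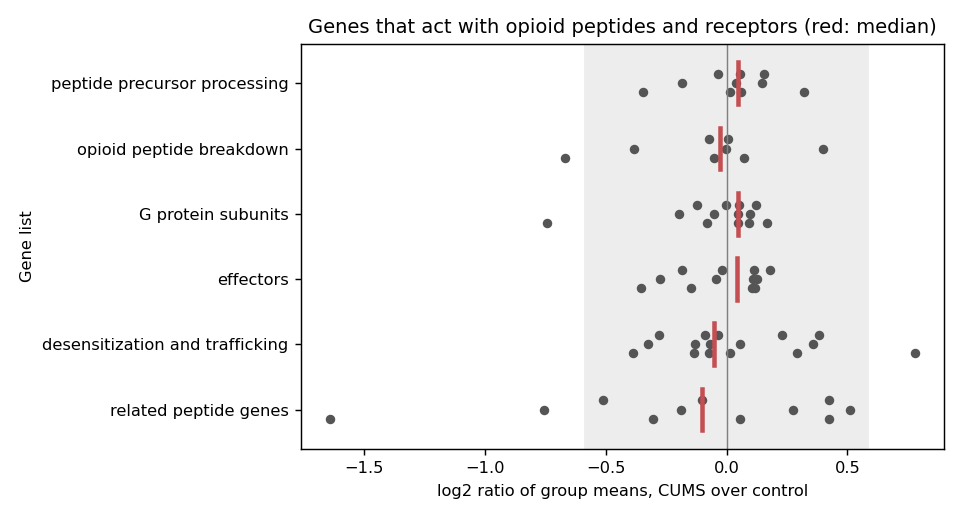
Log2 ratio of CUMS over control (horizontal axis) of each gene of at least 0.5 RPKM in 6 lists (rows), with the median of each list in red and the range within 1.5-fold in grey. The lists hold genes that act with opioid peptides and receptors and, in 1 list, related peptide genes. The medians lie between -0.10 and 0.05, and 5 genes lie outside the grey range, with Nts at -1.64 the lowest.

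Marker lists of the tissue and of neighbouring regions differed in how many genes passed the limit. Of all genes tested, 53.2% had a lower mean in CUMS. Past the limit were 4.42% that were lower and 2.78% that were higher. Neocortex was present, since all 12 of its excitatory neuron markers were expressed, but these markers do not single out the mPFC. Of the 12, 10 had a higher mean in CUMS (summed level 1625 and 1949 RPKM, median log2 ratio 0.31). Bcl11b and Foxp2 were lower (log2 ratios -0.03 and -0.24), with intervals that hold 0. Slc17a7, the vesicular glutamate transporter, had 635.39 and 791.26 RPKM, and Camk2a had 827.76 and 957.92 RPKM. Emx1, a transcription factor of the cortical lineage, was past the limit and higher (9.28 and 14.515 RPKM). Of 15 striatal markers, 15 had a lower mean in CUMS and 2 were past the limit (summed level 524 and 445 RPKM, median log2 ratio -0.30), and none was at 0. Past the limit were Isl1 (2.705 and 1.185 RPKM) and Six3 (4.17 and 1.955 RPKM). Both lie in the range of 0.5 to 5 RPKM, where 10.5% of genes were past it and lower. The most abundant, Ppp1r1b, had 191.08 and 170.415 RPKM, and Adcy5 had 84.735 and 69.98 RPKM. Of 14 tested genes of septum and hypothalamus, 13 were past the limit and lower and 1, Pmch, was past it and higher, on about 5 and 8 fragments (summed level 91.5 and 32.8 RPKM over 18 genes, median log2 ratio -1.67). The lowest ratios were those of Oxt (-3.01, on about 8 fragments in control), Magel2 (-2.32), Lhx8 (-2.01) and Dlk1 (-1.98). The highest in level were Baiap3 (24.135 and 7.345 RPKM) and Zic1 (17.515 and 6.915 RPKM). Otp was listed at 0.01, which stands for 0, in CUMS and Agrp in control. Both were below the minimum, as were Hcrt (0.24 and 0.465 RPKM) and Avp (0.14 and 0.145 RPKM). The counts past the limit leave them out. Of 16 olfactory bulb genes, 16 had a lower mean in CUMS and 14 were past the limit (summed level 136 and 67.6 RPKM, median -1.05), and Omp and S100a5 were listed at 0.01 in CUMS. Next lowest were Lbhd2 (log2 ratio -2.19) and Doc2g (-1.68), and the highest in level were Calb2 (36.075 and 19.115 RPKM) and Dlx1 (19.755 and 13.025 RPKM). Of 6 genes of the claustrum and endopiriform nucleus, deep cortical cells where Oprk1 is known to be high, 0 were past the limit, with summed levels of 100 and 112 RPKM and a median of 0.15. The highest of them were Synpr (43.72 and 48.595 RPKM) and Lxn (19.44 and 21.445 RPKM). All lists were chosen with earlier results of these data known. Several of these lists hold genes that the study itself reports as lower. In those of septum and hypothalamus and of the olfactory bulb these include Zic1, Dlk1, Magel2, Baiap3, Ngfr, Th, Doc2g and Calb2. In the cortical interneuron list they include Gad1, Gad2, Slc32a1 and again Calb2, and in the pathway lists Gng4 and Nts. The counts of these lists are therefore a description and no independent evidence. The part of the listed regions in the values of Penk, Pnoc and Oprl1 was not tested.

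The precursors can be set beside markers of cells known to hold them. Penk is known from the striatal neurons that carry Drd2, Adora2a and Gpr6, whose log2 ratios were -0.34, -0.45 and -0.30, against -0.46 for Penk. The level of Penk was 7.15 times that of Adora2a in control and 7.10 times in CUMS, 11.9 and 11.0 times that of Drd2, and 26.4 and 23.6 times that of Gpr6. Of these 3 markers, Adora2a had the log2 ratio closest to that of Penk. Penk and Pdyn are also known from cortical interneurons, and the genes listed for these cells lay on both sides of 0 (7 lower and 7 higher, below). Which cells the Penk difference comes from was not tested. Pdyn is known from the striatal neurons that carry Drd1 (Drd1a in the table), Tac1 and Isl1, whose log2 ratios were -0.26, -0.10 and -1.19, against 0.00 for Pdyn. The level of Pdyn was 2.35 times that of Drd1a in control and 2.83 times in CUMS, 0.502 and 0.540 times that of Tac1, and 9.36 and 21.4 times that of Isl1. These level ratios rest on the length of the deposited Pdyn model. Over its whole transcript Pdyn would have 7.93 RPKM in control and 7.95 RPKM in CUMS, below Drd1a at 10.795 and 8.985 RPKM. The counting interval of Pdyn (-0.24 to 0.25) holds the ratio of Tac1 and overlaps that of Drd1a (-0.45 to -0.09), and of these 3 only Isl1, on about 44 fragments in CUMS, lies apart from it (-1.74 to -0.67).

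Pnoc is known from GABAergic neurons, and the genes of GABA synthesis and loading, Gad1, Gad2 and Slc32a1, had log2 ratios of -0.60, -0.88 and -0.78, against -0.90 for Pnoc. The level of Pnoc was 0.149 times that of Gad2 in control and 0.146 times in CUMS, 0.0412 and 0.0336 times that of Gad1, and 0.0851 and 0.0785 times that of Slc32a1. These 3 genes, which the study itself reports as lower, belong to GABAergic neurons at large and do not single out cortical interneurons. The other genes of the cortical interneuron list did not follow in 1 direction. Of the 14 genes of that list, 4 were past the limit and lower (Calb2, at -0.92, beside the former 3), 7 had a lower and 7 a higher mean, and the median log2 ratio was -0.02 (summed level 1204 and 1264 RPKM). Sst and Cck were the most abundant of this list as well. Cck alone (421.315 and 565.445 RPKM) rose by more than the sum did, so the higher sum in CUMS rests on Cck. The pairs of precursor and marker were chosen after the values had been seen and are given as a description.

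**Figure D5:**
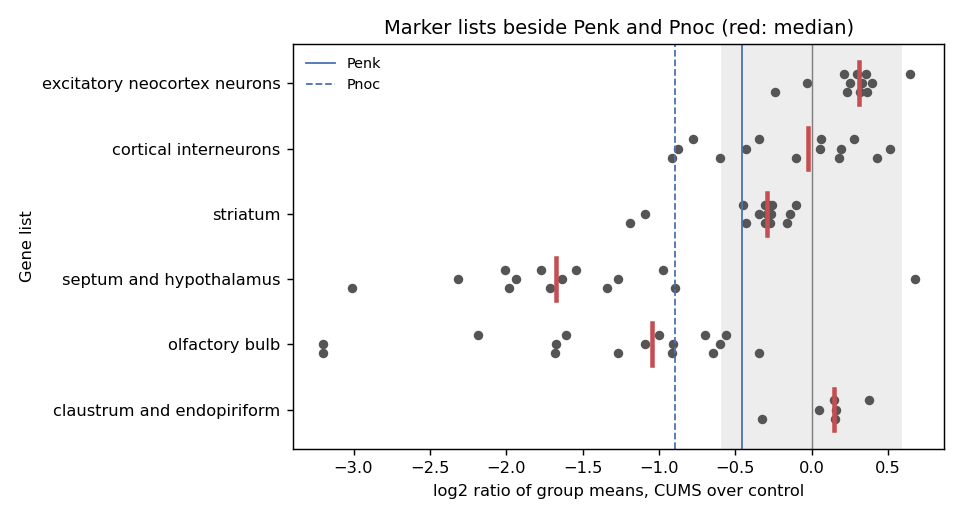
Log2 ratio of CUMS over control (horizontal axis) of each gene of at least 0.5 RPKM in 6 marker lists (rows), with medians in red, the range within 1.5-fold in grey, and the ratios of Penk (solid blue line, -0.46) and Pnoc (dashed blue line, -0.90). Omp and S100a5, listed at 0.01 in CUMS, are drawn at the left edge (-3.2). All striatal and olfactory bulb genes lie to the left of 0, as do the septal and hypothalamic genes except Pmch, and 10 of the 12 excitatory neuron genes lie to the right.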

How the data were processed

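Poly(A) RNA of mPFC was sequenced as paired reads (Illumina HiSeq). Per the labels and the methods of the study, the authors trimmed reads with SolexaQA, aligned them to mm10 with TopHat 1.0.12 and Bowtie 0.11.3, counted uniquely aligned reads and computed RPKM. The deposited values are mean RPKM per group and gene model length. Values of 0 appear as 0.01. Gene annotation and strand use are not given in the sources used here. The table also holds the authors' log2 ratio, direction and NOISeq probability, which were not used.

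The 7 members were found by symbol, and their log2 ratios were computed anew from the group means without a pseudocount. A gene was called when its larger mean was at least 0.5 RPKM and the means differed by more than 1.5-fold. These are the minimum and the fold of the study, whose further limit on the NOISeq probability was not applied, so the calls are not those of the study. Fragments were estimated from genes shorter than 1000 bases with a product of mean and length under 350, where 85.7% (control) and 85.2% (CUMS) of products differed by at most 0.15 steps from a multiple of 1 step, against 29.6% and 32.7% with lengths shuffled. Equal depth within a group was assumed. Ratios have exact Clopper-Pearson and levels exact Poisson 95% intervals, and intervals of sums use a normal approximation. They cover counting error only. The functions were tested on simulated data. NOISeq and limma need a value per library and were not run. Members, lists and limits were chosen with earlier results of these data known. List genes were matched by gene identifier (Sim1 and Smim32 were not analysed here). Of each list, up to 4 genes past the limit by size and the 2 highest in level were to be named, and any others were chosen after their values were seen or are markers of cells known to hold a precursor. Of the 7 members, 4 had an entry in the RefSeq promoter table, and promoters were not analysed. Python 3.11.15, pandas 2.3.3 and scipy 1.17.1 were used.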

Additional observations from a re-analysis of the deposited data

How the results depend on the processing

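No paired analysis was possible because 1 mean per group and gene is all that the values give. A replicate could not be left out either. The number of opioid genes past the limit was 1. It was 0 with a fold above 2 and 2 with a limit of 0.32 on the log2 scale, where Penk joined Pnoc, and it stayed at 1 without a minimum, with a minimum of 5 RPKM, with pseudocounts of 0.5 and 1 RPKM and with CUMS rescaled to an equal median or an equal total. In the pathway lists 5 genes were past the limit, 1 with a fold above 2 and 17 with a log2 limit of 0.32, and 4 to 6 under the other alternatives. Rescaling shifted every log2 ratio by 0.015 (equal median) or -0.0076 (equal total), which turned the sign of Oprd1 (0.0019 with an equal median) and of Pdyn (-0.0031 with an equal total), the 2 members closest to 0. Of 28 member values under pseudocounts and rescaling, 28 lay within the counting interval of the ratio. With 2 times the estimated depth, the interval of Oprk1 was -0.55 to -0.01 and no longer held 0. The log2 ratio of the precursor sum was -0.14 without Penk and -0.47 without Pdyn, and that of the receptor sum was -0.070 without Oprl1, because these genes carry much of the sums. Pdyn over its transcript length, added after the data had been seen, gave -0.45 for the precursor sum. Depth limits Oprm1 most, and a level below about 0.0773 RPKM in control is under the floor of 3 fragments for this gene. In CUMS the floor is about 0.0767 RPKM. The CUMS mean of 0.07 RPKM lies under it, and its 3 fragments are a rounded value.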
